A study of Mus musculus with 12 samples.

Results

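Axon guidance ligands and receptors were followed in mouse cortical neurospheres through every probe whose annotated gene symbol belongs to the semaphorins of classes 3 to 7, the plexins and neuropilins, the ephrins and Eph receptors, the Slits and Robos, or the netrins with their receptors of the Unc5 family and Dcc. The rule found 67 probes of 58 genes among 21738 probes on the array, 36 of them for ligands (32 genes) and 31 for receptors (26 genes). It used symbols and no measured value.

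Neurospheres, balls of dividing neural precursors kept in suspension, came here from the cortex of mouse embryos of gestational day 12.5 and were grown without serum with basic FGF and EGF (20 ng/ml each) and LIF (0.15 ng/ml). The 12 arrays fell into 4 groups of 3: control cultures in growth medium only, sampled at 24 h and at 108 h, and prominin cultures, sampled at the same times, which had received an adenovirus expressing CD133 (R-prominin1 in the labels). The design text speaks of GFP or prominin positive neurospheres while the treatment text gives the controls no virus, so virus and prominin-1 cannot be told apart. For prominin samples titled 24 h the labels name 108 h elsewhere, and the title's time was taken. All groups shared 1 reference, RNA of whole C57/Bl6 embryos of gestational day 12, labelled with Cy3 beside the neurosphere RNA in Cy5, with no dye swap. Nothing in the labels tells separate cultures from repeat samples, and the spread that p-values rest on may therefore be technical.

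Guidance molecules steer growing axons and migrating cells. Secreted or membrane-bound ligands bind receptors on the growth cone, and these act on the cytoskeleton to attract or repel. Class 3 semaphorins are secreted and bind neuropilins, which form complexes with plexins, while most other semaphorins bind plexins directly. A-type ephrins are lipid-anchored and B-type ephrins span the membrane, and both bind Eph receptor tyrosine kinases on neighbouring cells. Slits act through Robo receptors, and netrins through Dcc (mainly attraction) and the Unc5 receptors (repulsion). Many of these genes also act outside the nervous system, in blood vessels, limb, muscle and epithelia, all of which a whole embryo contains.

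Values are log2 ratios of neurosphere to embryo RNA. Each array's own median over the 4532 probes that all 12 arrays measured was subtracted, so that 0 stands for the median probe and not for the reference: before centring the median probe lay at −1.60 (mean of 12 arrays). Values before centring are called deposited values. For these, above or below the reference means only above or below 0, on arrays that had not been put on a common scale. Exact zeros and a top code of 16.61, whose meaning the labels do not give, were treated as missing. They filled 194 and 15 of the 804 member cells (1 probe on 1 array) and left 595 measured (74.0%, against 68.1% over all probes). All 67 members had at least 3 values. On all 12 arrays 15 were measured, on 9 to 11 arrays 26, on 6 to 8 arrays 16 and on 3 to 5 arrays 10. The times differed in quality: 67.9% of member cells were measured at 24 h and 80.1% at 108 h, and ratios of whole numbers up to 10, a mark of dim spots, made up 40.3% of the measured member values at 24 h and 3.4% at 108 h.

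The direction of the ratio is not stated in the labels, and marker lists were used to check it and the labelled cells. The neural stem list lay above the median probe on 12 of 12 arrays (list median per array 1.59 to 4.33), with 8 of 13 tested probes called higher and 2 lower (Sox1 at −4.90 and Id3 at −3.27, named after their values were seen). The erythroid (−7.47 to −3.32), muscle (−6.72 to −3.95) and mesenchymal (−6.01 to −3.61) lists lay below it on all 12. That is the order of neurosphere over embryo. Of the marker lists the astrocyte list lay highest, above the median probe on 12 of 12 arrays (2.91 to 5.89). It had 3 of 5 tested probes called higher and 0 lower. Averaged over the arrays its list median was 4.16, and that of the neural stem list 2.97. The neuronal list lay below the median probe on 12 of 12 arrays (−3.01 to −0.69), with 4 of 7 tested probes called lower and 0 higher.

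The share of members that differed from the median probe was close to that of the whole array. The limma test needed at least 2 values in every group, which 35 members of 32 genes had. Their ratio averaged over the 4 groups was tested against 0 with adjustment over all 9155 probes tested. Of the 35 members 17 were called at an adjusted p under 0.05, 7 above and 10 below the median probe. Over all probes 55.8% were called, 30.4% above and 25.5% below. At an unadjusted p under 0.05 there were the same number of members, 17, beside 61.4% of all probes. The members' median was −0.18 and that of all probes tested 0.23. The test covers the spread between arrays only, since the reference was 1 RNA. The count was 26 with deposited values (1 above and 25 below the reference), where 6.01% of all probes were called above and 61.9% below.

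**Figure D1:**
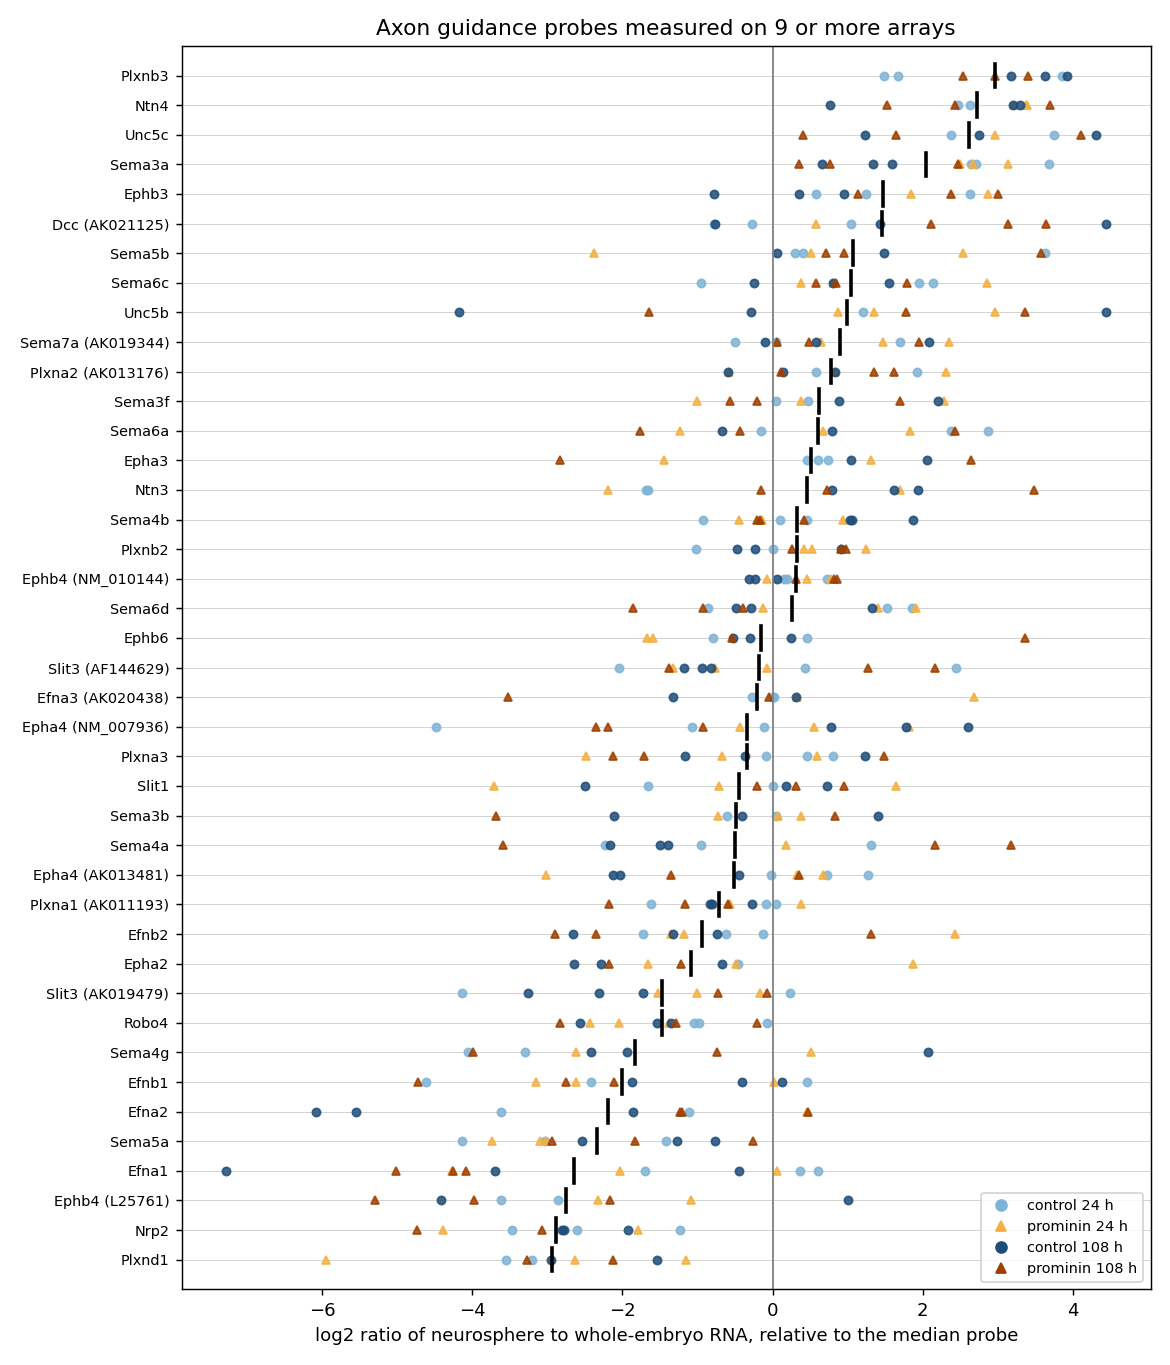
Log2 ratio of neurosphere to whole-embryo RNA relative to the median probe (horizontal axis) for the 41 member probes measured on 9 or more arrays, ordered by their mean (black bar), with 1 point per array. Plxnb3 (mean 2.96), Ntn4, Unc5c and Sema3a lie above 0 on every array where they were measured, and Sema5a, Robo4, Nrp2 and Plxnd1 (mean −2.93) below it.

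The 2 highest ratios among the called members belonged to Ntn4 and Sema3a, and the sequences around their annotated starts are shown because they differ in base composition. The windows are those of RefSeq (GRCm38.p6), of 300 bases that span the start, 5′ to 3′, with CG dinucleotides in capitals. The Ntn4 window (chr10:93640799-93641098, + strand) holds 31 CG and the Sema3a window (chr5:13396534-13396833, + strand) 2. Windows were matched by symbol for 50 of the 58 genes (66 windows), with 2 to 56 CG and a median of 19.5, against a median of 7.0 over all 32851 windows. CG, which reads the same on both strands, occurs in all 66 windows of the members and in 94.6% of all windows. The arrays hold no measurement on these sequences.
Ntn4: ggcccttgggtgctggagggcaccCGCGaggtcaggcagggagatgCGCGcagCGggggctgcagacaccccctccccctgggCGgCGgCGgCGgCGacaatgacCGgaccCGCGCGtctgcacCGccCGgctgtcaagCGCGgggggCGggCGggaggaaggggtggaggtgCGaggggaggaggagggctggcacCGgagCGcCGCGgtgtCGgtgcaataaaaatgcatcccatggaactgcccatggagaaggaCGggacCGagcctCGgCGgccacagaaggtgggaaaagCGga
Sema3a: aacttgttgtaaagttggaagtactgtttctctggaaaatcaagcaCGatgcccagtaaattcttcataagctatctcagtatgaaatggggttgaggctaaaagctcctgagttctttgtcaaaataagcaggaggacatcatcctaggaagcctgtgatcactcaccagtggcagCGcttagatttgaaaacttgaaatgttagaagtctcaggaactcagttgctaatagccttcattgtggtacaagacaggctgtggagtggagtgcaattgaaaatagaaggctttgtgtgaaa

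Semaphorins were the largest family, with 20 probes of 18 genes, 11 of them tested. The family's median per array lay above 0 on 12 of 12 arrays (0.06 to 1.39), as did the median of all probes measured on an array (0.22 to 1.21). Of the tested probes 3 were called above the median probe, 2 below and 6 not.

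Sema3a, the classical secreted repellent of cortical and sensory axons, was measured on all 12 arrays, with no dim value. In 24 h controls it lay at 3.68, 2.64 and 2.70, in 24 h prominin cultures at 2.49, 2.67 and 3.13, in 108 h controls at 1.58, 0.66 and 1.34, and in 108 h prominin cultures at 0.77, 2.47 and 0.35. Every array was above the median probe (mean 2.04, SE 0.23, limma adjusted p = 2.5e-05), and every 24 h value was above every 108 h value. With deposited values it lay at 0.44 (SE 0.27, adjusted p = 0.162) and was not called.

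Sema7a, a lipid-anchored semaphorin that binds plexin-C1 and integrins, had 2 probes. AK019344 ranged from −0.51 over a median of 0.61 to 2.35 and was above 0 on 10 of 12 arrays (mean 0.90, SE 0.30, adjusted p = 0.0241). NM_011352 lay at 3.05 ± 1.73 (SD, n = 8) and was not tested. The AK019344 call did not hold without 1 of 4 arrays: control 24 h replicate 1 (0.72, adjusted p = 0.0549), prominin 24 h replicate 1 (0.77, adjusted p = 0.0575), control 108 h replicate 3 (0.74, adjusted p = 0.0538) or prominin 108 h replicate 3 (0.76, adjusted p = 0.0512). With deposited values it was called below the reference (−0.71, adjusted p = 0.0431).

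Sema6c, a transmembrane semaphorin, was above 0 on 10 of 12 arrays (mean 1.04, SE 0.34, adjusted p = 0.0215). Its values spanned −0.96 to 2.85.

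Sema5a, a transmembrane semaphorin with thrombospondin repeats and a ligand of plexin-B3, was below the median probe on all 12 arrays. It lay at −1.42, −3.04 and −4.13 in 24 h controls, −3.10, −3.02 and −3.73 in 24 h prominin cultures, −1.27, −2.54 and −0.76 in 108 h controls and −1.83, −2.94 and −0.27 in 108 h prominin cultures (mean −2.34, SE 0.31, adjusted p = 7.18e-05). Its relative Sema5b ran the other way at 1.05 (SE 0.51) and was not called (adjusted p = 0.104). It was called in 2 of 20 alternative analyses, of which 1 left out prominin 24 h replicate 3 (1.37, adjusted p = 0.0286).

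Sema4g, a class 4 transmembrane member, had a mean of −1.96 (SE 0.60, adjusted p = 0.0221), from −4.05 to 2.07 on 9 arrays. The call was lost with both codes kept as values (−0.91, adjusted p = 0.296) and without moderated variances (adjusted p = 0.0737). The 4 tested semaphorins between −0.55 and 0.57 (Sema3b −0.55, Sema6d 0.26, Sema4b 0.33, Sema6a 0.57) were not called, nor was Sema3f at 0.66. Of the 9 probes not tested, Sema3e lay at 1.96 ± 2.21 (SD, n = 7), Sema4d at 1.36 ± 0.78 (n = 6), Sema4c at 1.20 ± 0.46 (n = 4), Sema3d at 0.84 ± 0.90 (n = 5), Sema6b at 0.16 ± 1.63 (n = 5) and Sema4a at −0.50 ± 2.15 (n = 10). The others were both Sema3c probes and the second Sema7a probe.

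Plexins and neuropilins, the semaphorin receptors, had 11 probes of 9 genes. Of the 7 tested, 2 were called above, 3 below and 2 not.

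Plxnb3 encodes plexin-B3, a receptor found in oligodendrocyte lineage cells. It had the highest mean of the members measured on at least 9 arrays (2.96 ± 0.89, SD, n = 9). It lay at 3.85, 1.48 and 1.68 in 24 h controls, 3.18, 3.92 and 3.63 in 108 h controls and 3.40, 2.54 and 2.96 in 108 h prominin cultures. On the 3 prominin 24 h arrays it was an exact zero, so it was not tested. Its deposited mean was 1.22 ± 1.13, above the reference on 8 of 9 arrays. Oligodendrocyte lineage markers were high in the same cultures (list median per array 0.14 to 4.89, above 0 on 12 of 12, 4 of 5 tested probes called above and 1 below). Their part in the Plxnb3 value was not tested.

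Plxnc1, the plexin that binds semaphorin 7A, was the other high plexin, at 1.37 (SE 0.32, adjusted p = 0.00818) from 2 values in each group. It lay at 3.24 and 2.32 in 24 h controls, 1.72 and 1.502 in 24 h prominin cultures, 2.17 and 0.89 in 108 h controls and −1.19 and 0.29 in 108 h prominin cultures. With deposited values it lay at −0.12. Of its 8 values 4 were dim. Plxna2, an A-type plexin that pairs with neuropilins and binds class 6 semaphorins, had a probe at 0.82 (AK013176, SE 0.31, adjusted p = 0.0472). Its call was lost in 13 of 21 alternative analyses, among them without centring (−0.76, adjusted p = 0.0842) and without any of 6 arrays: prominin 24 h replicate 2 (0.81) or 3 (0.63), control 108 h replicate 1 (0.82) or 2 (0.73), and prominin 108 h replicate 1 (0.75) or 2 (0.78).

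Nrp2, a coreceptor of class 3 semaphorins and of lymphatic growth factors, was below 0 on 10 of 10 arrays, from −4.74 to −1.23 (fitted mean −2.98, SE 0.36, adjusted p = 9.2e-05). Plxnd1, a plexin of blood vessels, was below 0 on 9 of 9 arrays, from −5.95 to −1.15 (fitted mean −2.89, SE 0.49, adjusted p = 0.00117; −1.70 and 0.075 with both codes kept). The Plxna1 probe AK011193 lay at −0.71 (SE 0.24, adjusted p = 0.0237). The second Plxna1 probe, NM_008881, lay at 0.95 ± 2.31 (SD, n = 8), and the second Plxna2 probe, D86949, at 0.46 ± 1.53 (n = 6). Neither second probe was tested. Nrp1, the partner of semaphorin 3A, had only 7 values, which ran from −4.43 to 2.61 (−1.45 ± 2.67, SD), and was not tested. Plxna3 (−0.34) and Plxnb2 (0.25) were not called.

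Ephrins had 9 probes of 8 genes. All 4 tested had a fitted mean below 0, and 2 of them were called.

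Efna1, a lipid-anchored ephrin of vessels and epithelia, was measured on all 12 arrays. It lay at 0.37, 0.61 and −1.70 in 24 h controls, 0.06, −4.27 and −2.04 in 24 h prominin cultures, −3.70, −7.28 and −0.45 in 108 h controls and −4.25, −5.01 and −4.08 in 108 h prominin cultures. The 3 highest values were all at 24 h and the spread was wide (mean −2.65, SE 0.54, adjusted p = 0.00163). Efnb1, a transmembrane ephrin of neural crest and progenitors, lay at −2.00 (SE 0.45, adjusted p = 0.00315), from −4.72 to 0.46. Efnb2, an arterial and progenitor ephrin, lay at −0.94 (SE 0.44) and was not called (adjusted p = 0.0888), nor was the Efna3 probe AK020438 at −0.22. The other Efna3 probe, U90666, lay at 1.06 ± 1.53 (SD, n = 7) and was not tested. Efna5, a guidance cue of forebrain maps, had only 5 values, all above 0 (1.61 to 5.40), and Efna2 (−2.19 ± 2.39, SD, n = 9) and Efna4 (−2.09 ± 2.22, n = 5) lay lower. Efnb3 lay at 0.02 ± 1.85 (n = 7). These 4 were not tested.

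Eph receptors had 13 probes of 11 genes, of which 7 were tested, 1 called above, 1 below and 5 not. Ephb3, a B-type receptor of neural progenitors, was above 0 on 10 of 11 arrays, at 2.63, 0.58 and 1.25 in 24 h controls, 1.85 and 2.87 in 24 h prominin cultures, 0.94, −0.78 and 0.35 in 108 h controls and 3.00, 2.38 and 1.14 in 108 h prominin cultures. Its fitted mean was 1.55 (SE 0.29, adjusted p = 0.00131), and with deposited values −0.03. With both codes kept it lay at 2.85 (adjusted p = 0.0717).

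Ephb4, the receptor of ephrin-B2 on veins, gave different answers by probe. L25761 was below 0 on 8 of 9 arrays (fitted mean −2.61, SE 0.58, adjusted p = 0.00498), and at −1.70 with both codes kept (adjusted p = 0.0622). NM_010144 had the narrowest spread of the members measured on 12 arrays (SD 0.42) and lay at 0.31 (SE 0.18, adjusted p = 0.161). Epha3 (0.50), Ephb6 (−0.15) and both Epha4 probes (−0.51 and −0.34) were not called. Of the receptors not tested, Epha8 had the widest split by time, with −0.53 on 1 array at 24 h and 3.95 ± 1.48 (SD, n = 4) at 108 h. Epha5 lay at 1.27 ± 2.07 (n = 6), Epha7 at 0.83 ± 0.92 (n = 7), Epha6 at 0.64 ± 1.59 (n = 7), Epha1 at −0.58 ± 1.05 (n = 6) and Epha2 at −1.08 ± 1.37 (n = 9).

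Robo4, the Robo of endothelial cells, was the only 1 of 3 Robo genes tested, and lay below 0 on 12 of 12 arrays. Its values were −1.04, −0.98 and −0.07 in 24 h controls, −2.43, −1.38 and −2.04 in 24 h prominin cultures, −1.54, −2.56 and −1.35 in 108 h controls and −0.21, −2.84 and −1.29 in 108 h prominin cultures (mean −1.48, SE 0.26, adjusted p = 0.000557). Robo1 lay at −3.07 ± 2.65 (SD, n = 7) and Robo2 at 3.51 ± 2.60 (n = 3).

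Endothelial markers were low beside the low ratios of Robo4, Plxnd1 and the L25761 probe of Ephb4. The 8-gene list had 3 of its 4 tested probes called below the median probe and none above. Among them was the receptor gene Kdr at −2.74 (adjusted p = 2.99e-05), while Flt1 lay at 0.80 (adjusted p = 0.451). Of the genes not tested, Tie1 lay above 0 (1.70 ± 1.78, SD, n = 8), and Cdh5, Pecam1 and Tek had means below 0. The list median per array was −2.41 to 0.46 at 24 h and −4.79 to −2.10 at 108 h. Its part in these values was not tested, and in bulk RNA fewer cells of a type and less RNA per cell cannot be told apart.

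Slits, the Robo ligands, had 4 probes of 3 genes, and the 3 tested had fitted means below 0. The Slit3 probe AK019479 lay at −1.42 (SE 0.42, adjusted p = 0.0163), and its call was lost with both codes kept (−0.91) and in 2 other alternative analyses. The other Slit3 probe, AF144629, lay at −0.18 (adjusted p = 0.707), and Slit1 at −0.48 (adjusted p = 0.411). Slit2 had 5 values (−0.12 ± 1.10, SD) and was not tested.

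Netrins and their receptors had 7 probes of 6 genes, of which 2 were tested. Ntn4, a laminin-related netrin of basement membranes, was above 0 on 11 of 11 arrays. It lay at 2.63 and 2.46 in 24 h controls, 3.38, 3.21 and 3.39 in 24 h prominin cultures, 3.20, 0.76 and 3.30 in 108 h controls and 3.70, 2.43 and 1.52 in 108 h prominin cultures (fitted mean 2.71, SE 0.30, adjusted p = 3.43e-05). It was the only member called above the reference with deposited values (1.06, SE 0.28, adjusted p = 0.00595). Ntn3 lay at 0.22 (SE 0.46) and was not called (adjusted p = 0.698).

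Unc5c, a repulsive netrin receptor, was above 0 on 9 of 9 arrays, from 0.41 over a median of 2.75 to 4.31, and had too few 24 h values for the test. Unc5b ran from −4.18 to 4.45 over 10 arrays, and was not tested. Ntn1, the classical attractant of commissural axons, had 4 values, all at 108 h, at 0.21, 6.22 and 9.59 in controls and −0.53 in a prominin culture. The remaining 8 arrays held 6 exact zeros and 2 top codes, so no level could be set. The Dcc probe AK021125 lay at 1.46 ± 1.85 (SD, n = 10), and NM_007831 at −1.68 ± 2.65 (n = 3).

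**Figure D2:**
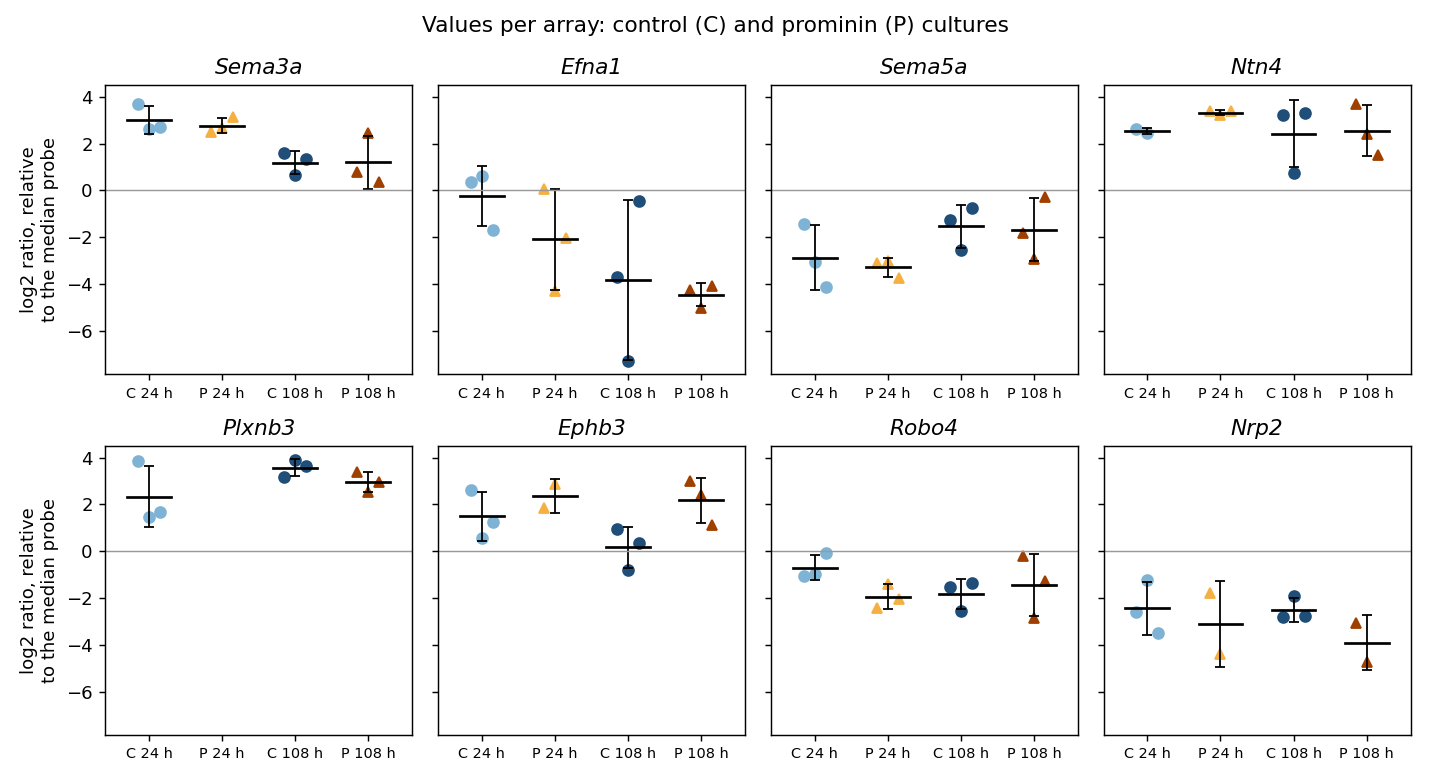
Log2 ratio relative to the median probe (vertical axis) of 8 members in control (C) and prominin (P) cultures at 24 h and 108 h, 1 point per array, with the group mean (bar) and SD (whisker, groups of 2 or 3). All 6 values of Sema3a at 24 h lie above its 6 values at 108 h, and Plxnb3 has no value in prominin cultures at 24 h.

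The comparison of 108 h with 24 h over both kinds of culture asked which members changed with time. No member passed (0 of 35, with 0.0546% of all probes called). At an unadjusted p under 0.05 there were 6 members (2 with higher and 4 with lower values at 108 h), and 9.7% of all probes. The members' median difference was −0.21 and that of all probes −0.03.

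Sema3a came first. It averaged 2.89 ± 0.44 (SD, n = 6) at 24 h and 1.20 ± 0.77 (n = 6) at 108 h, −1.69 apart (SE 0.47, limma adjusted p = 0.272). Its groups of 6 did not overlap, which held for 1 of the 35 members and for 1.86% of all probes tested. The exact permutation test of the time labels over 12 arrays (two-sided) gave an unadjusted p = 0.00216, beside 14 other members so tested. That is the smallest p its 924 arrangements allow. Groups of 6 without overlap always give it, so it adds nothing to the lack of overlap. The difference was −1.82 (SE 0.66) in controls and −1.57 (SE 0.66) in prominin cultures (limma adjusted p = 0.618 and 0.524). Over its 24 alternative analyses it stayed negative, between −2.04 and −1.48 (limma adjusted p 0.105 to 0.771).

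Efna1 averaged −1.16 ± 1.88 (SD, n = 6) at 24 h and −4.13 ± 2.21 at 108 h. The difference of −2.96 (SE 1.08) had a limma adjusted p of 0.396 and an exact permutation p of 0.0346, and the groups overlapped. Sema5a lay 1.47 higher at 108 h (SE 0.61, limma adjusted p = 0.464, exact permutation p = 0.0238). Sema6d, a transmembrane ligand of A-type plexins, lay at 0.95 ± 1.16 and −0.44 ± 1.04 (−1.39, SE 0.62, limma adjusted p = 0.503, exact permutation p = 0.0584).

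Plxnc1 (−1.66, SE 0.63, limma adjusted p = 0.457) and Ntn3 (2.36, SE 0.92, limma adjusted p = 0.44) had values on 8 and 10 arrays. Ntn3 lay at −1.66 and −1.68 in 24 h controls, 1.70 and −2.20 in 24 h prominin cultures, 1.62, 0.80 and 1.93 in 108 h controls and −0.15, 3.48 and 0.73 in 108 h prominin cultures. Next among higher values were Ephb6 (1.51, SE 0.82) and Sema4b (0.67, SE 0.43). Dim values were far more common at 24 h. With dim values set to missing, no member was called with time either. Beyond that, their part in these differences was not tested. None of the values of Sema3a was dim, and 3 of those of Efna1 and 1 of those of Sema5a were. For the others named, 4 of 8 values were dim for Plxnc1, 3 of 9 for Ephb6, 2 of 12 for Sema6d, 1 of 10 for Ntn3 and 1 of 12 for Sema4b.

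The times were also compared within each kind of culture, and no member passed in either. In controls 0.0% of all probes were called, and 5 members had an unadjusted limma p under 0.05, as did 6.94% of all probes. These were the Epha4 probe NM_007936 (3.61, SE 1.07, adjusted p = 0.529), Sema3a, Sema4b (1.44, SE 0.61), Ntn3 (3.12, SE 1.30) and Efna1 (−3.57, SE 1.53), the last 4 with adjusted p of 0.618 to 0.697. Next by p were Sema4g (2.92, SE 1.61), the Epha4 probe AK013481 (−2.19, SE 1.01) and Ephb3 (−1.32, SE 0.79). Single control arrays moved several of these. Without 24 h replicate 2 Epha4 (NM_007936) lay at 2.33, without 24 h replicate 1 Ephb3 lay at −0.75, and without 108 h replicate 3 Sema4g lay at 1.503. Without 108 h replicate 2 Efna1 lay at −1.82 and Ephb3 at −0.83. Of the 35 members 12 (34.3%) did not overlap between the times in controls, beside 18.6% of all probes. Among these 12, Ntn3, Sema4g, Plxnc1, Sema3f, Plxnd1 and Epha3 had only 2 values in at least 1 group. In prominin cultures 0.0218% of probes were called, and 5 members had an unadjusted p under 0.05, beside 8.81% of all probes. They were the Efna3 probe AK020438 (−3.30, SE 1.28), Sema6d (−2.13, SE 0.88), Ephb6 (3.05, SE 1.21), Sema3a and the same Epha4 probe, now at −2.47 (SE 1.07). Their adjusted p was 0.507 to 0.536. The AK020438 difference ran from −4.69 to −0.05 over 16 alternative analyses. The other Efna3 probe, U90666, was not tested and ran the other way, from −0.67 at 24 h to 2.30 at 108 h (n = 2 each). Next by p among higher values were Sema5a (1.61, SE 0.87), the Slit3 probe AF144629 (1.41, SE 1.12) and Ntn3 (1.60, SE 1.30). Without prominin 108 h replicate 3 Sema5a lay at 0.91 and Slit3 at 0.67, without replicate 1 Slit3 lay at 2.44, and without replicate 2 Ntn3 lay at 0.54. There 7 members (20.0%) did not overlap, beside 19.6% of all probes. Of these 7, Efna3, Ephb6 and Plxnc1 had only 2 values in each group.

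**Figure D3:**
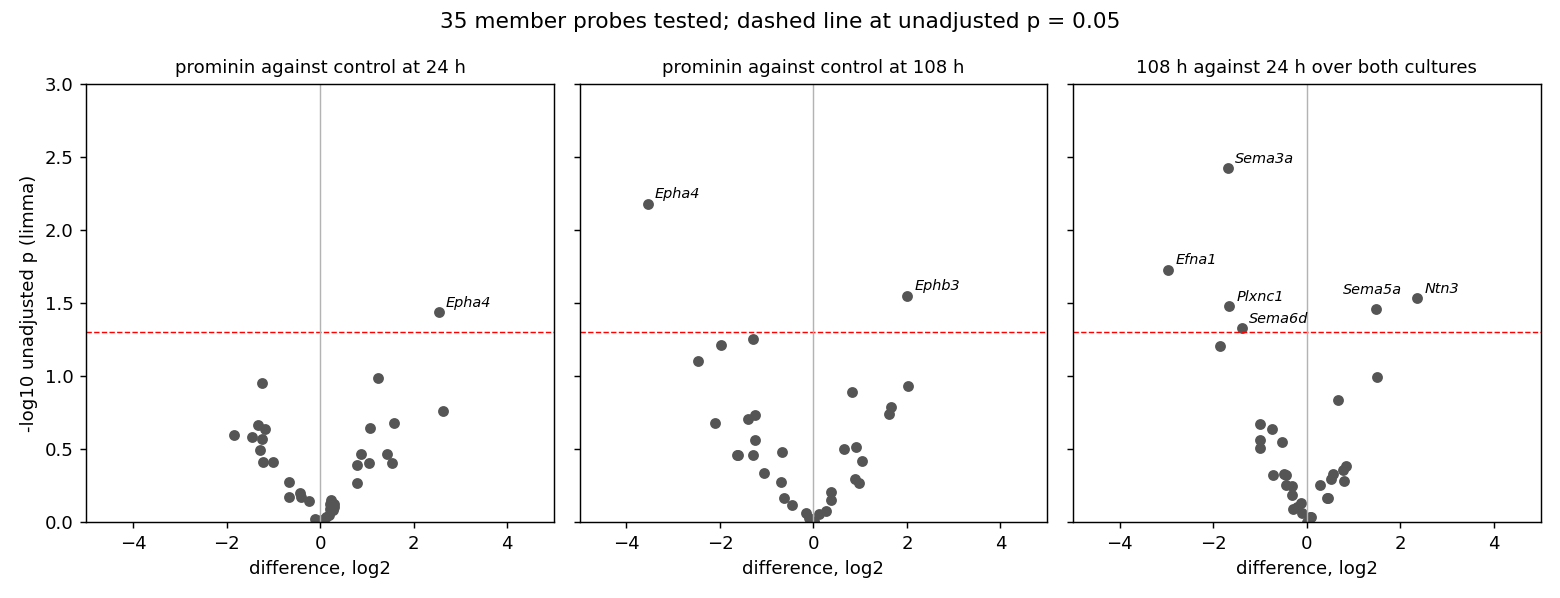
Difference in log2 ratio (horizontal axis) against −log10 of the unadjusted limma p (vertical axis) for the 35 tested member probes in 3 comparisons, 1 point per probe, with members past the dashed line at 0.05 named. Sema3a is the highest point with time (−1.69) and Epha4 at 108 h (−3.54), and none passed after adjustment over all probes.

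At 24 h of culture prominin cultures were compared with controls, and none of the 35 members passed (0.0% of all probes called). The unadjusted limma p was under 0.05 for 1 member, and for 4.58% of all probes. That member was the Epha4 probe NM_007936, at −1.07, −4.48 and −0.12 in controls and −0.43, 1.82 and 0.55 in prominin cultures, so that prominin lay 2.54 higher (SE 1.07, limma adjusted p = 0.998). The groups overlapped, and without control 24 h replicate 2 the difference was 1.25. Next among higher values came Plxnb2, a plexin of neural progenitors (1.23, SE 0.69), Sema4g (2.62, SE 1.76) and the Efna3 probe AK020438 (1.59, SE 1.17). The other Efna3 probe, U90666, lay at 1.15 on 1 control array and −0.67 (n = 2) in prominin cultures. Among lower values were Robo4 (−1.25, SE 0.73), the other Epha4 probe (−1.33, SE 1.01), Plxnc1 (−1.17, SE 0.90) and Efna1 (−1.84), all with a limma adjusted p of 0.998. Single arrays moved 2 of these: AK013481 lay at −0.15 without prominin 24 h replicate 1 and −1.99 without replicate 2, and Efna1 at −2.90 and −0.74. Of the 35 members 8 (22.9%) did not overlap between the groups, beside 16.5% of all probes. All of these but Robo4 had only 2 values in at least 1 group.

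At 108 h none of the 35 members passed either (0.0% of all probes called), and 2 had an unadjusted limma p under 0.05, beside 6.82% of all probes. Epha4, an Eph receptor that binds both ephrin types, lay at 0.78, 1.77 and 2.61 in controls and −0.92, −2.35 and −2.19 in prominin cultures by the probe NM_007936. The groups did not overlap and lay −3.54 apart (SE 1.07, limma adjusted p = 0.677; 0.2 to 1.0 over 23 alternative analyses). The other Epha4 probe, AK013481, did not show it: it lay at −0.44, −2.03 and −2.13 in controls and 0.36 and −1.35 in prominin cultures. With the 2 probes averaged the difference was −1.32.

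Ephb3 lay 2.00 higher in prominin cultures at 108 h (0.17 ± 0.88 in controls and 2.17 ± 0.95 in prominin cultures, SD, n = 3 each, SE 0.79, limma adjusted p = 0.717), with no overlap. Its difference over both times was 1.44 (SE 0.59, limma adjusted p = 0.959). The Slit3 probes lay 2.03 (SE 1.17) and 1.67 (SE 1.12) higher, and the Ephb4 probe NM_010144 lay 0.83 higher (SE 0.51), which turned to −0.25 without centring. The second Slit3 value was 0.93 without prominin 108 h replicate 3 and 2.70 without replicate 1. Sema4b (−1.30, SE 0.61), Plxnc1 (−1.98, SE 0.90) and Efnb1 (−2.48, SE 1.28) lay lower in prominin cultures, with limma adjusted p of 0.725 to 0.732. Here 8 of 35 members did not overlap (22.9%), beside 15.8% of all probes. Among these 8, Plxnc1, the Slit3 probe AK019479 and Nrp2 had only 2 values in at least 1 group. Before centring, the median probe differed between prominin and control by −1.08 at 108 h and 0.68 at 24 h, and every value is relative to that.

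An interaction term compared the prominin effect at 108 h with that at 24 h. No member passed (0.0% of all probes called), and 1 had an unadjusted limma p under 0.05, beside 5.95% of all probes. That was again the Epha4 probe NM_007936 (−6.08, SE 1.51, limma adjusted p = 0.805), while AK013481 lay at 2.37 (SE 1.52, limma adjusted p = 0.828). Next by p were Ephb6 (3.07), Slit3 (2.67) and Robo4 (1.62, or −0.13 without centring) with higher values. With lower values came Sema4b (−1.54), Sema4g (−4.22) and the Efna3 probe AK020438 (−2.87, and −5.04 to −0.09 over 16 alternative analyses). For all of these the limma adjusted p was 0.817 to 0.828. With 1 array left out, Slit3 lay at 1.58 (control 24 h replicate 3), Robo4 at 1.0 (prominin 108 h replicate 1), Sema4g at −2.81 (control 108 h replicate 3) and AK013481 at 1.19 (prominin 24 h replicate 1). For prominin against control over both times none passed and 0.0% of all probes did, with 2 members under an unadjusted p of 0.05 (Ephb3 and Plxnc1, −1.57, SE 0.63, adjusted p = 0.959), beside 5.06% of all probes.

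There were 9 genes with 2 probes, and these often differed on the same array. Over 66 arrays and genes where both probes of a gene were measured, the pair lay on the same side of the median probe in 33. The 2 means had opposite signs for 5 of the 9 genes. The probes differed by a median of 3.57 on the log2 scale for Ephb4 (9 arrays), 3.45 for Sema3c (6 arrays), 2.69 for Sema7a (8 arrays), 2.48 for Efna3 (5 arrays), 2.19 for Plxna1 (8 arrays), 1.79 for Epha4 (11 arrays), 1.17 for Plxna2 (6 arrays), 1.14 for Slit3 (10 arrays) and 0.17 for Dcc (3 arrays, with 1 array at 9.11). Sema3c, a secreted semaphorin, lay at −1.54 ± 1.37 (SD, n = 8) by AK004119 and 1.495 ± 1.56 (n = 8) by NM_013657. The calls for Ephb4, Slit3, Plxna1, Plxna2 and Sema7a each rest on 1 of 2 probes, and with probes averaged Plxna1 lay at −0.17, Slit3 at −0.51 and Plxna2 at 0.65, none of these 3 called.

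**Figure D4:**
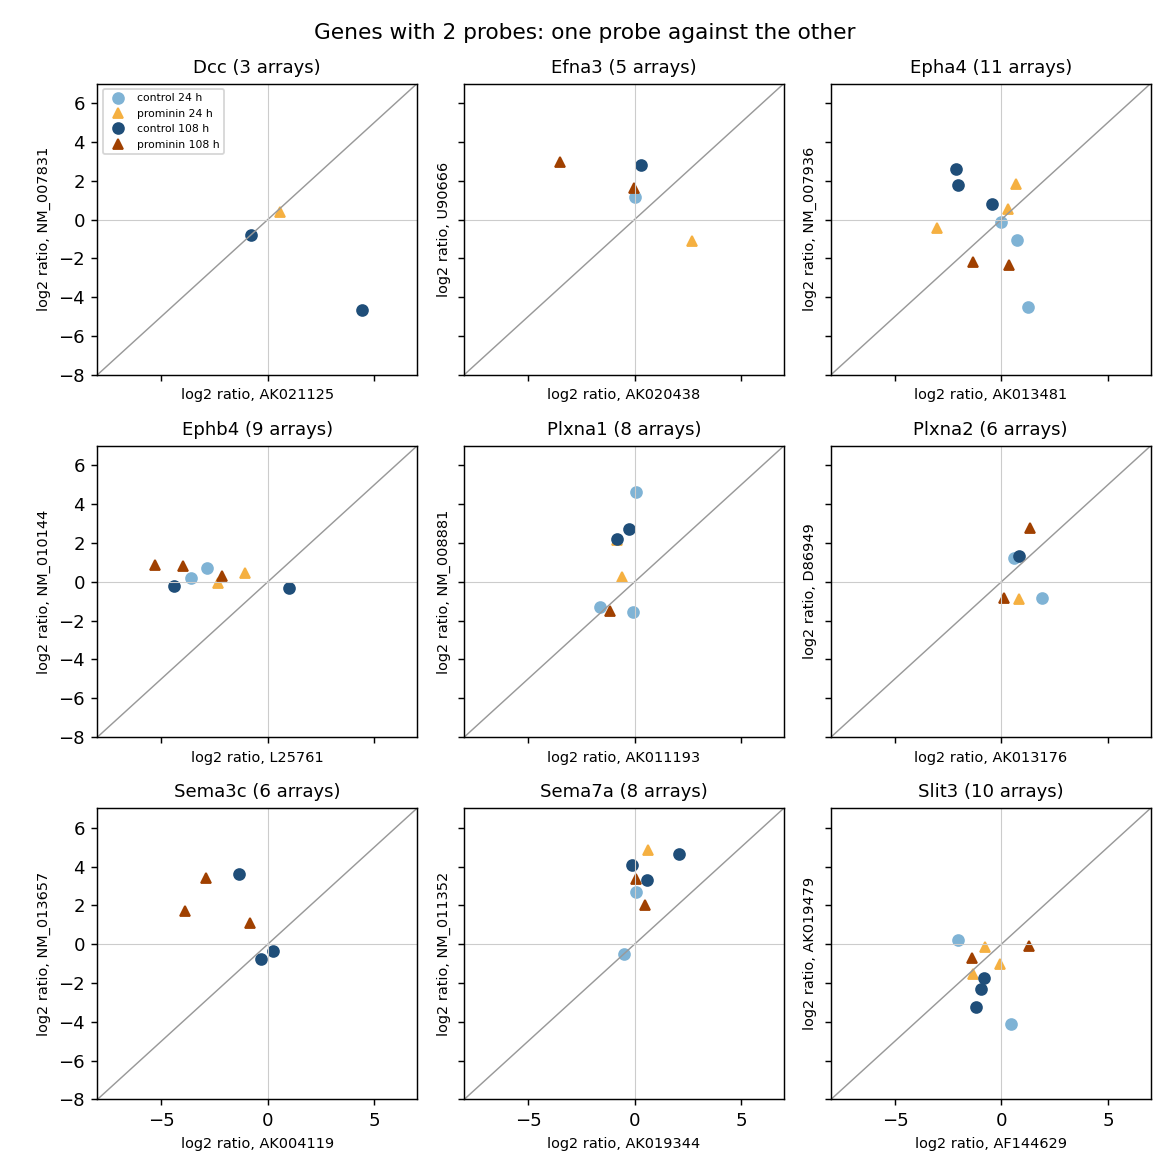
Log2 ratio relative to the median probe of one probe (horizontal axis) against the other (vertical axis) for the 9 genes with 2 probes, 1 point per array where both were measured, with the line of equality. The Ephb4 points spread along the horizontal axis only (SD 1.90 for L25761 and 0.42 for NM_010144), and 7 of the 8 Sema7a points lie above the line.

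A wider list of 94 guidance genes outside the rule (adhesion molecules, cytoplasmic mediators and other receptors) held 95 probes of 78 genes on the array, of which 63 were tested. Against the median probe 41 were called, 26 above and 15 below (median 0.61), beside 55.8% of all probes. The adhesion molecule genes Cntn1 (7.96, SE 0.43, and 5.67 by a second probe) and Nrcam (3.38, SE 0.30, adjusted p = 5.85e-06) were highest by p. Lowest by p were Crmp1, a mediator of semaphorin 3A signals in growth cones (−4.22, SE 0.27, adjusted p = 7.09e-07), the GTPase gene Rac2 (−2.82, SE 0.27) and the kinase gene Fes (−2.34, SE 0.23). None of the 63 passed in the comparison of times, where 7 had an unadjusted limma p under 0.05, among them the growth cone gene Gap43 (−1.34, SE 0.35, adjusted p = 0.25). None passed for prominin against control at 108 h, where 5 had an unadjusted p under 0.05, nor at 24 h, where 1 did.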

How the data were processed

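RNA of 12 neurosphere samples in 4 groups of 3 was measured on 2-colour oligonucleotide arrays. Per the labels' protocols, RNA was extracted with Trizol and RNeasy columns and labelled with Cy5 (sample) or Cy3 (reference) dendrimers. No source used here names the scanner, its software or the normalization. The deposited table was read as log2 ratios. Array medians differed (−2.59 to −0.84), so the arrays had not been put on a common scale.

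Exact zeros and the top code were set to missing, the median over the probes that all 12 arrays measured was subtracted from each array, and limma 3.58.1 (R 4.3.3) fitted group means to probes that had 2 or more values per group (moderated variance, Benjamini-Hochberg over all 9155 probes, threshold 0.05). The median residual SD was 1.19. The fit was also run on simulated data with independent normal noise, which cannot check dim spots or repeat samples of 1 culture. Gene names came from the platform annotation, which can be old (16620 probes with 1 symbol, 113 with several, 5005 with none). All 67 members were matched in RefSeq. Probes were not averaged. Array numbers limit the precision, and depth is unknown.

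The members and the gene lists were chosen with earlier results of these data known. Members past the threshold are named, then the next by unadjusted p (up to 4 in each direction), and by level the 8 highest and lowest on at least 9 arrays with each family's extremes. Groups came from sample titles. The titles share replicate numbers between groups. Deviations of same-numbered arrays correlated at −0.07 to 0.12 (18 pairs, mean 0.041, 3 above 0.1). Those of different-numbered arrays correlated at −0.12 to 0.12 (36 pairs, mean −0.021, 1 above 0.1). Same-numbered arrays were not treated as pairs in the main fit. Alternatives changed the codes, centring, filter, dim values, probe averaging, weights, moderation, a replicate block and the arrays used.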

Additional observations from a re-analysis of the deposited data

How the results depend on the processing

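For the 7 comparisons between cultures or times the count of members called was 0 in every alternative run. Against the median probe, where 17 members were called, the count was 26 without centring and 8 on probes measured on all 12 arrays (15 members tested). It was 10 with dim values missing (21 tested) and 18 with a replicate block. With the block, among members named for their level, Slit3 AK019479 (−1.345) and Plxna2 (0.781) lost a call and Sema5b (1.225) gained one. Further members that gained a call with the block are not listed here. With 1 array left out the count was 10 to 16, lowest without control 24 h replicate 2 (26 tested). The block changed no count of members in the other comparisons. The exact time test gave p under 0.05 for 3 of 15 members, and for 1 of 4 with dim values missing. It was run on members only, so these counts have no share over all probes beside them. By limma 9.7% of all probes had an unadjusted p under 0.05 with time. Without centring 14 of the 16 tested members above 0 turned below it, among the named ones to −0.027 (Ephb3), −0.54 (Sema5b), −0.56 (Sema6c), −0.71 (Sema7a), −0.12 (Plxnc1), −0.76 (Plxna2) and −1.36 (Ntn3). With 1 array left out Ntn3 lay between −0.042 (prominin 108 h replicate 2 left out) and 0.415. Slit3 (AF144629) lay between −0.458 and 0.095, above 0 when control 24 h replicate 1 (0.095) or prominin 108 h replicate 1 (0.079) was left out. The level of Efna3 was 0.22 with both codes kept and 0.20 with probes averaged. Averaging turned Epha4 (AK013481) to 0.60 at 24 h, −1.93 in the interaction and 0.71 with time in controls, and Ephb4 (NM_010144) to −0.93 at 108 h and −0.15 over both times. Without centring Ephb4 lay at −0.25 at 108 h and the Robo4 interaction at −0.13. With both codes kept the Nrp2 difference over both times was 0.80. Fewer members were tested in analyses where counts fell, but members still tested also lost a call, such as Plxna2 with dim values missing (0.63, limma adjusted p = 0.0629). The causes of these and the other changes were not tested.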
